A study of Mus musculus with 12 samples.

Results

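Tumour necrosis factor (TNF) signalling was followed through 10 genes of the 55335 in the raw count table: the ligands Tnf and Lta, the receptors Tnfrsf1a, Tnfrsf1b and Tnfrsf11a, and the adaptors and regulators Traf1, Traf2, Birc3, Ripk1 and Tnfaip3. They were taken by symbol, and each symbol stood in 1 row. The study asked what the thyroid-stimulating hormone (TSH) receptor of myeloid cells does, and sequenced RNA from 12 mouse samples, 3 in each of 4 groups. In 2 groups the samples were bone marrow-derived macrophages (BMDMs), grown for 7 days with M-CSF at 10 ng/mL and then given TSH at 1 ng/mL for 24 h. One of these groups came from Tshr f/f mice, which carry floxed Tshr alleles, and the other from Tshr MKO mice (Tshr f/f, Lyz2-Cre), which also carry Cre under the Lyz2 promoter of myeloid cells, and donors of both were male littermates, by the labels 6 weeks old. The other 2 groups were whole livers of the same genotypes from male mice that had eaten a high-fat diet since the age of 6 weeks, over 9 weeks in all, and that were fasted for 8 h before insulin at 1.5 U/kg, which acted for 5 min. All BMDMs received TSH, so there is no library here from BMDMs without it, and all livers received insulin.

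The count totals were 33683981 to 40954211 per BMDM library and 28962878 to 40420513 per liver library. Tshr itself had 0 to 5 counts in every library, so its deletion could not be checked from RNA. Lyz2, the locus that carries Cre, had counts-per-million (CPM) values, scaled with TMM library size factors, of 8773 to 9843 across Tshr f/f BMDMs and of 14537 to 22320 across Tshr MKO BMDMs. In livers it was at 27.7 to 59.9 CPM across Tshr f/f, and at 1.56, 106 and 43.7 CPM across Tshr MKO replicates 1, 2 and 3. For 12 of 12 receptor genes checked, the study's supplementary receptor table has the liver counts under the other genotype heading, so the liver groups below are the livers labelled Tshr f/f and Tshr MKO. Of these genes 1, with 0 counts in every liver, fits both headings. If those labels are exchanged, every liver genotype difference below takes the opposite sign, and comparisons of BMDMs with livers within a genotype take the other livers. The macrophage markers were present in BMDMs (summed level of 10 genes 16501 to 17281 CPM across Tshr f/f and 22583 to 33034 CPM across Tshr MKO), and the hepatocyte markers Alb, Apoa1, Ttr, Fgb and Cyp2e1 had 3 counts or fewer in all BMDM libraries. One library, Tshr f/f BMDM replicate 3, stood apart, with a TMM factor of 0.738 against 0.993 to 1.11 in the other 5 BMDM libraries, and the BMDM log2 fold changes of the 10 genes and the counts of the lists are given with and without it.

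TNF is made mainly by macrophages as a membrane protein that is cleaved into a soluble trimer, and lymphotoxin alpha, the product of the neighbouring gene Lta, binds the same receptors. TNFR1 (Tnfrsf1a) is found on most cells and assembles a complex of TRADD, TRAF2, the cellular inhibitors of apoptosis (one of them encoded by Birc3) and the kinase RIPK1, which leads to NF-kappa B and JNK activity or to cell death. TNFR2 (Tnfrsf1b) is found mainly on blood and endothelial cells and recruits TRAF2 and TRAF1 without a death domain. NF-kappa B induces several genes of the pathway itself, among them Tnf, Birc3, Traf1 and Tnfaip3, whose product A20 edits ubiquitin on RIPK1 and closes the loop.

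Promoter sequence is shown for Tnf and Tnfaip3, the ligand and the feedback inhibitor, which had large differences between the BMDM groups. The sequences are from RefSeq (GRCm38.p6), where all 10 genes were matched, and cover the 250 bases before an annotated start. For Tnf, on the minus strand at chr17:35202008-35202257, capitals mark a TATAAA match 29 bases upstream of the start.
Tnf: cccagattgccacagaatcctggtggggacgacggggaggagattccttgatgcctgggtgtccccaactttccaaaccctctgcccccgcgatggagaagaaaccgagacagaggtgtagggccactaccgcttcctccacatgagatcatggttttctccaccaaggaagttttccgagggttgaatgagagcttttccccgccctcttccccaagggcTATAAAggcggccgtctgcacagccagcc
For Tnfaip3, also on the minus strand, short stretches are given in which capitals mark 2 matches to the NF-kappa B consensus, at chr10:19015516-19015545 and chr10:19015411-19015440, and 1 match to the AP-1 motif TGANTCA, at chr10:19015527-19015556.
Tnfaip3 NF-kappa B match 125 bases upstream: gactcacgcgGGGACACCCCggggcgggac
Tnfaip3 NF-kappa B match 12 bases upstream: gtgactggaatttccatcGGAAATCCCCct
Tnfaip3 AP-1 match 136 bases upstream: aatgcccaggTGACTCAcgcggggacaccc
Both strands were searched, and the 3 matches do not overlap each other. GENCODE M21 starts Tnfaip3 further upstream, at position 19015657, so these stretches lie within its gene model there. In the same window of 32851 RefSeq promoters, the NF-kappa B consensus was present in 3.9%, TGANTCA in 6.75% and TATAAA in 12.4%. Of the 10 genes, only Tnfaip3 held the NF-kappa B or AP-1 letters in this window, and TATAAA was in the windows of Tnf, Lta and Tnfaip3. RefSeq also gives Tnfaip3 another start, whose window (chr10:19011964-19012213) held none of these letters. Ripk1 too has more than 1 start there, and no window of it held them.

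In BMDMs given TSH, Tnf, Lta, Tnfaip3, Traf1, Traf2, Birc3, Tnfrsf1b and Tnfrsf1a were lower in every Tshr MKO library than in any Tshr f/f library, and Tnfrsf11a was higher in every one. Without overlap 14% of the 15372 genes tested were lower and 14.8% higher in Tshr MKO, against 8 and 1 of the 10 genes here. Of the 10, 9 had a log2 fold change below 0, against 49.2% of all genes. By edgeR's quasi-likelihood test with Benjamini-Hochberg adjustment over all genes, 0 of the 10 passed an adjusted p of 0.05, as did 0 of all genes (0%), whose lowest adjusted p was 0.218. At an unadjusted p under 0.05, 7 of the 10 were lower, against 10.2% of all genes, and 1 was higher, against 7.73%. The median log2 fold change of the 10 genes (Tshr MKO against Tshr f/f) was -1.51, beside 0.01 over all genes. Without Tshr f/f replicate 3 the counts were 6 lower and 1 higher, and the median was -0.92. DESeq2, which estimates the spread otherwise, gave 6 of the 10 an adjusted p under 0.05, all of them lower in Tshr MKO, out of 701 lower and 522 higher genes.

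**Figure D1:**
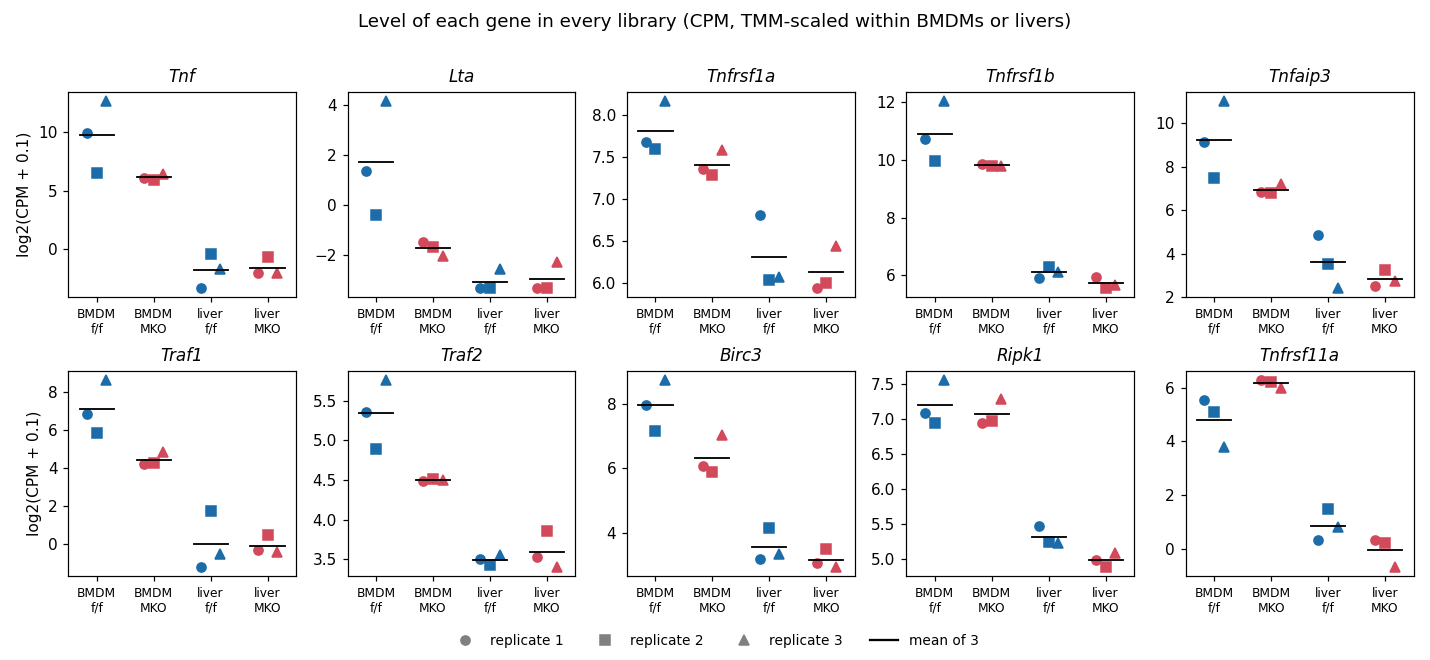
Level of the 10 genes in each library, as log2 of CPM plus 0.1, in the 4 groups. Points are libraries (shape gives the replicate) and bars are means of 3. In BMDMs, Tshr f/f replicate 3 was highest for 9 genes and lowest for Tnfrsf11a. By unscaled share of all counts, that library was not the highest for Tnfrsf1a, Traf2 or Ripk1.

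The 2 ligands had the largest differences of the 10 genes. Tnf (ENSMUSG00000024401, chr17:35199381-35202007 in GRCm38, minus strand, 4 exons) was at 973, 92.5 and 6441 CPM across Tshr f/f BMDMs against 66.3, 61.2 and 84.0 CPM across Tshr MKO BMDMs. The Tshr f/f libraries spanned a wide range, replicate 2 lay just above the Tshr MKO group, and in replicate 3 Tnf alone took 0.475% of all counts. The log2 fold change was -5.15 ± 1.45 (SE, adjusted p = 0.222 by edgeR), a 35.5-fold difference, and it was -2.93 without Tshr f/f replicate 3. Lta (ENSMUSG00000024402, chr17:35203165-35205351, minus strand, next to Tnf) had the same order of Tshr f/f libraries at a far lower level, with 2.44, 0.664 and 17.7 CPM across Tshr f/f and 0.261, 0.213 and 0.145 CPM across Tshr MKO. Its log2 fold change was -5.05 ± 1.32 (SE, adjusted p = 0.218 by edgeR) with all libraries and -2.89 without Tshr f/f replicate 3. DESeq2 put the adjusted p at 0.00461 for Tnf and at 0.00016 for Lta.

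The 2 TNF receptors had smaller log2 fold changes than their ligand. Tnfrsf1b (chr4:145213463-145246870, minus strand), which encodes TNFR2, was at 1690, 1002 and 4211 CPM across Tshr f/f against 929, 891 and 885 CPM across Tshr MKO. Its log2 fold change was -1.35 ± 0.52 (SE, adjusted p = 0.261 by edgeR), and it came to -0.58 without Tshr f/f replicate 3. The Tshr MKO values lay within a narrow range just under the lowest Tshr f/f library. Tnfrsf1a (chr6:125349362-125362484, plus strand), which encodes TNFR1 with its death domain, was at 204 and 193 CPM across Tshr f/f replicates 1 and 2, higher still in replicate 3, and at 164, 156 and 191 CPM across Tshr MKO. The height of replicate 3 came with its TMM factor, since the unscaled shares of all counts were 0.0203%, 0.0215% and 0.0211% in Tshr f/f. Here the groups all but met, and the log2 fold change of -0.42 ± 0.20 (SE, adjusted p = 0.324 by edgeR) became -0.22 without Tshr f/f replicate 3.

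Among the adaptors, Traf1 stood apart from Traf2. TRAF1 has no RING domain and works in pairs with TRAF2, while TRAF2 brings the inhibitors of apoptosis to the receptor. Traf1 (chr2:34941750-34961772, minus strand) was at 115, 57.0 and 395 CPM across Tshr f/f against 18.5, 18.9 and 28.6 CPM across Tshr MKO. The log2 fold change was -3.10 ± 0.73 (SE, adjusted p = 0.218 by edgeR), and it was -1.97 without Tshr f/f replicate 3. Traf2 (chr2:25517982-25546940, minus strand) was at 41, 29.6 and 54.1 CPM across Tshr f/f against 22.4, 22.8 and 22.5 CPM across Tshr MKO, so that the 3 Tshr MKO libraries were nearly equal. It gave -0.88 ± 0.22 (SE, adjusted p = 0.218 by edgeR), or -0.65 without Tshr f/f replicate 3.

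Birc3 (chr9:7848699-7873186, minus strand), the ubiquitin ligase cIAP2 of the receptor complex, was at 246, 142 and 425 CPM across Tshr f/f against 66.4, 59.1 and 130 CPM across Tshr MKO. Replicate 3 of Tshr MKO came close to replicate 2 of Tshr f/f, and the log2 fold change was -1.67 ± 0.49 (SE, adjusted p = 0.222 by edgeR), or -1.2 without Tshr f/f replicate 3. Ripk1 (chr13:34002363-34037147, plus strand), the kinase that is ubiquitinated by that ligase, was at 136, 123 and 188 CPM across Tshr f/f against 123, 125 and 156 CPM across Tshr MKO. It was the 1 gene of the 10 whose BMDM groups overlapped, with a log2 fold change of -0.14 ± 0.21 (SE, adjusted p = 0.725 by edgeR) that turned to 0.06 without Tshr f/f replicate 3. Its exons overlap those of Gm17084 on the same strand by 511 bases and of Serpinb6a on the opposite strand by 241 bases, so part of its reads may not be its own. The study describes its libraries as strand-specific, but the strand setting of the counting is not given in the sources used here.

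Tnfaip3 (chr10:19000910-19015657, minus strand), the feedback inhibitor A20 whose promoter stretches are printed above, was at 572, 179 and 2102 CPM across Tshr f/f against 113, 111 and 146 CPM across Tshr MKO. The order of the libraries was that of Tnf, and the log2 fold change was -2.95 ± 0.86 (SE, adjusted p = 0.222 by edgeR), or -1.62 without Tshr f/f replicate 3. Tnfrsf11a (chr1:105780718-105847981, plus strand), which encodes RANK, the receptor through which RANKL drives precursors of the macrophage lineage to osteoclasts, lay the other way. It was at 46.1, 34.1 and 13.7 CPM across Tshr f/f against 78.2, 74 and 64.1 CPM across Tshr MKO. The library with the most Tnf thus had the least Tnfrsf11a, and the log2 fold change was 1.2 ± 0.41 (SE, adjusted p = 0.242 by edgeR), or 0.85 without Tshr f/f replicate 3. The osteoclast markers, summed over 6 genes, were at 238 to 327 CPM across Tshr f/f against 262 to 350 CPM across Tshr MKO, with Calcr at 0 to 2.92 CPM. Of these, Atp6v0d2 was higher in every Tshr MKO library, at 69.0, 25.2 and 20.2 CPM and at 124, 151 and 139 CPM. Acp5 (103, 234 and 195 CPM and 83.6, 99.5 and 154 CPM) and the other genes of the sum overlapped.

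**Figure D2:**
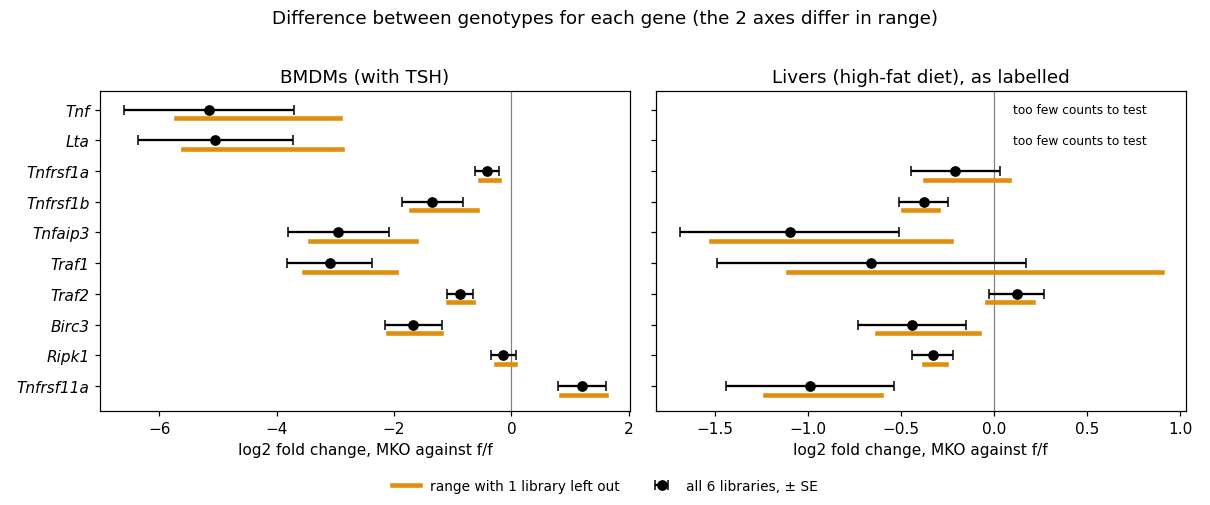
Log2 fold change of each gene, Tshr MKO against Tshr f/f, in BMDMs (left) and livers (right, on a narrower axis). Points are the estimates from 3 libraries per group with bars of 1 SE, and the orange bars span the estimates with 1 library left out; for Tnf these ran from -5.72 to -2.93 in BMDMs, and for Traf1 from -1.11 to 0.90 in livers.

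Summed markers of macrophages, hepatocytes, monocytes and dendritic cells did not overlap between these BMDM groups. The macrophage sum, given above, was higher in Tshr MKO. Lyz2, its largest part and the locus that carries Cre, was higher in every Tshr MKO library, as were C1qb and C1qc. Adgre1 was lower in every Tshr MKO library (1162, 1272 and 1536 CPM and 1137, 1089 and 1008 CPM), and the rest overlapped. With Lyz2 left out, the macrophage sums of the groups overlapped. The hepatocyte sum came almost wholly from Ass1, at 178, 143 and 345 CPM across Tshr f/f and 54.9, 49.5 and 51.5 CPM across Tshr MKO. The 4 monocyte markers came to 300 to 1077 CPM across Tshr f/f against 158 to 295 CPM across Tshr MKO, but they did not go 1 way. Ly6c2, which dominates the sum, was at 354, 204 and 908 CPM and at 55.6, 41.1 and 130 CPM, and Plac8 at 48.9, 31.3 and 50.5 CPM and 15.5, 14.9 and 20.8 CPM. Ccr2, the chemokine receptor of inflammatory monocytes, was higher in every Tshr MKO library, at 21.3, 14.7 and 11.7 CPM and at 38.6, 46.2 and 65.0 CPM, while Chil3 overlapped. Dendritic cell markers, summed over 6 genes of which 2 reached a mean of 1 CPM, were at 11.3 to 17.6 CPM across Tshr f/f against 8.75 to 9.25 CPM across Tshr MKO. Of these 2, Ccr7 was at 6.03, 10.9 and 13.4 CPM and at 2.87, 2.37 and 3.83 CPM. Zbtb46 overlapped, at 3.19, 2.91 and 2.92 CPM and at 4.36, 4.56 and 2.14 CPM. The sums of 8 neutrophil markers (5.75 to 46.2 CPM and 5.09 to 12.3 CPM) and of 5 stellate cell and fibroblast markers (614 to 1762 CPM and 378 to 733 CPM) overlapped. Their part in the results was not tested. In RNA from a whole culture or tissue, fewer cells of a type and less RNA per cell cannot be told apart.

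In the livers Tnf and Lta were nearly undetected. Tnf counts were 0, 23 and 6 for the livers labelled Tshr f/f and 5, 22 and 4 for the livers labelled Tshr MKO, which is at most 0.634 CPM. Lta had 0, 0 and 2 counts and 0, 0 and 3 counts in the same order. A count of 0 allows up to 3 counts, and the counts of Tnf spread widely within both groups over a like range. Both ligands were below the count minimum of the test. A genotype difference in them was thus not tested in livers, and only a large one could have been seen at this depth.

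Of the 8 genes tested in livers, 7 had a log2 fold change below 0 and 1 above, against 50.9% of all genes below 0, with a median of -0.41 beside -0.01 over all genes. By edgeR 0 of the 8 passed an adjusted p of 0.05, as did 0 of the 15062 genes tested (0%), and DESeq2 gave 0 of the 8 as well, out of 144 lower and 125 higher genes. At an unadjusted p under 0.05 there were 2 lower, Ripk1 and Tnfrsf1b, against 5.18% of all genes, and 0 higher, against 5.27%. Without overlap between the groups there were 2 lower, Ripk1 and Tnfrsf11a, against 7.74% of all genes, and 0 higher, against 9.6%. Ripk1 was at 44.3, 37.7 and 37.3 CPM across the livers labelled Tshr f/f against 31.6, 29.5 and 33.8 CPM across those labelled Tshr MKO, a narrow gap with a log2 fold change of -0.33 ± 0.11 (SE, adjusted p = 0.378 by edgeR). Tnfrsf11a was at 1.15, 2.67 and 1.66 CPM and at 1.15, 1.07 and 0.531 CPM, with -0.99 ± 0.45 (SE, adjusted p = 0.500 by edgeR). The levels of RANK were thus near 1 CPM in liver, and the lowest of the first group equalled the highest of the second at the printed digits.

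The TNF receptors overlapped between the liver groups. Tnfrsf1b was at 60.7, 77.4 and 69.6 CPM and at 61.2, 47.4 and 51.3 CPM across the livers labelled Tshr f/f and Tshr MKO, with a log2 fold change of -0.38 ± 0.13 (SE, adjusted p = 0.419 by edgeR). Tnfrsf1a was at 112, 65.9 and 67.3 CPM and at 61.6, 64.2 and 86.6 CPM. Replicate 1 of the livers labelled Tshr f/f was alone in its height, and the log2 fold change of -0.21 ± 0.24 (SE, adjusted p = 0.818 by edgeR) turned to 0.08 without it. The same liver had the most Tnfaip3, at 29.2 CPM against 11.4 and 5.24 CPM in its group and 5.53, 9.21 and 6.55 CPM in the livers labelled Tshr MKO. For Tnfaip3 the log2 fold change was -1.10 ± 0.59 (SE, adjusted p = 0.564 by edgeR), and -0.23 at the nearest to 0 with 1 library left out. That liver also had the highest summed level of 8 neutrophil markers, 106 CPM against 10.1 to 32.9 CPM in the other livers, and the lowest of 5 liver endothelium markers, 45.6 CPM against 96.7 to 157 CPM. Their part in the values was not tested.

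Traf1 was at 0.338, 3.20 and 0.597 CPM across the livers labelled Tshr f/f against 0.699, 1.29 and 0.637 CPM across those labelled Tshr MKO. The highest value, in replicate 2 of Tshr f/f, was in the liver with the highest summed macrophage markers (594 CPM, against 214 to 519 CPM in the others) and the highest Birc3. That liver also had the highest sums of Kupffer cell (605 CPM), stellate cell and fibroblast (288 CPM) and lymphocyte (9.76 CPM) markers. The part of these cells in the value was not tested. The log2 fold change of Traf1 was -0.66 ± 0.83 (SE, adjusted p = 0.833 by edgeR), and it turned to 0.90 without that liver. Birc3 was at 9.07, 17.6 and 9.99 CPM and at 8.27, 11.2 and 7.65 CPM, and Traf2, the adaptor common to both receptors, at 11.2, 10.7 and 11.6 CPM and 11.4, 14.4 and 10.5 CPM. Neither separated the groups, with log2 fold changes of -0.44 ± 0.29 for Birc3 and 0.12 ± 0.15 for Traf2.

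The 10 genes were next ordered by level per length, as CPM per kilobase of exon on 1 scale for all 12 libraries. In Tshr MKO BMDMs Tnfrsf1b led at 174 ± 4.09 (SD, n = 3), followed by Tnfrsf1a at 48.6 ± 5.79 and Tnf at 31.8 ± 5.70, each clear of the next. Tnfaip3 (12.6 ± 2.12), Birc3 (12.6 ± 5.87) and Ripk1 (11.9 ± 1.72) overlapped, and Tnfrsf11a (8.89 ± 0.828), Traf2 (3.26 ± 0.0310), Traf1 (1.84 ± 0.499) and Lta (0.11 ± 0.0306) followed in steps wider than their spread. In Tshr f/f BMDMs Tnf led, at 1125 ± 1546 (SD, n = 3), before Tnfrsf1b at 443 ± 327. There the SD reached or passed the mean for Tnf, Tnfaip3 and Lta, and of all neighbours in the order only Ripk1 (13.1 ± 3.10) lay wholly above the next gene, Traf2 (5.99 ± 1.80). In livers the order began with Tnfrsf1a, at 42.5 ± 13 and 37.2 ± 6.34 in the groups labelled Tshr f/f and Tshr MKO, then Tnfrsf1b at 24.6 ± 3.20 and 19.0 ± 2.62, then Ripk1 at 6.45 ± 0.567 and 5.16 ± 0.247, with no overlap between these. Tnf (0.231 ± 0.270 and 0.225 ± 0.189), Tnfrsf11a (0.414 ± 0.179 and 0.210 ± 0.0800) and Traf1 (0.213 ± 0.245 and 0.136 ± 0.0579) overlapped at the foot of the liver order. Lta had the lowest mean, and its range overlapped that of Traf1 in both liver groups.

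**Figure D3:**
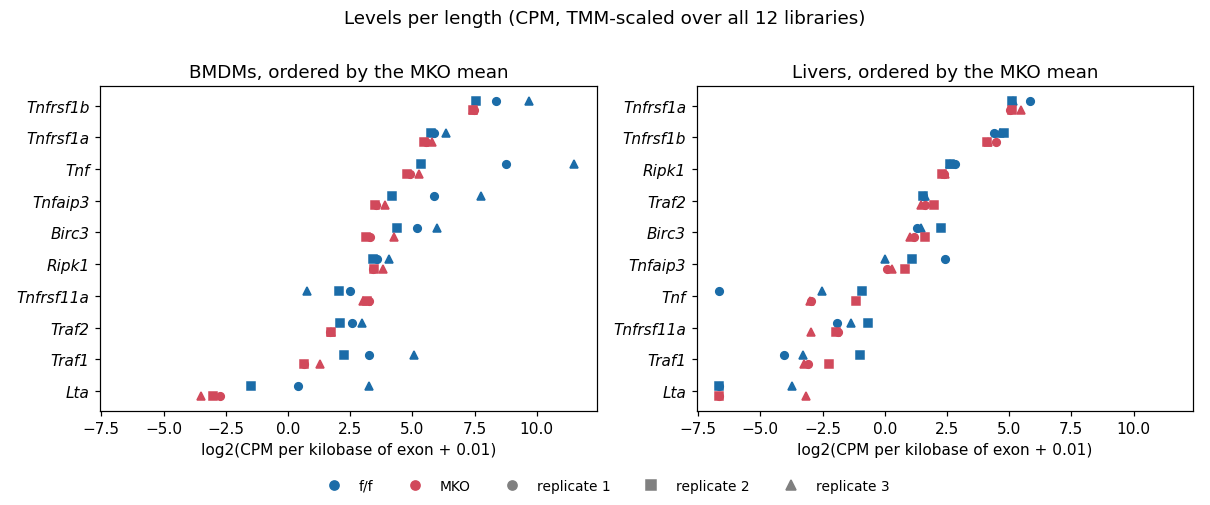
Level per length of the 10 genes in BMDMs (left) and livers (right), as log2 of CPM per kilobase of exon plus 0.01, with Tshr f/f in blue and Tshr MKO in red. Tnfrsf1b lay above Tnfrsf1a in every BMDM library and below it in every liver, and Tnf ranked high in BMDMs and near the foot in livers.

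The receptor balance per length lay on opposite sides of 1 in macrophages and liver. The ratio of Tnfrsf1b to Tnfrsf1a per kilobase was 5.62, 3.53 and 9.99 for the Tshr f/f BMDMs and 3.85, 3.88 and 3.14 for the Tshr MKO BMDMs. In livers it was 0.369, 0.796 and 0.702 in those labelled Tshr f/f and 0.673, 0.501 and 0.402 in those labelled Tshr MKO. All 6 BMDM libraries were thus above 1 per length and all 6 livers below. The side of 1 depends on the division by length, since of the plain counts 2 livers labelled Tshr f/f lay above 1 as well (1.17 and 1.03), while the order of the libraries does not. By an exact two-sided permutation test, BMDMs against livers gave p = 0.1 within each genotype, the smallest that 3 against 3 allows (0.16 adjusted over the 8 ratio comparisons). Between genotypes the ratio gave an exact permutation p of 0.3 in BMDMs and 0.7 in livers. The ratio of Traf1 to Traf2 was 1.62, 1.11 and 4.22 for the Tshr f/f BMDMs and 0.478, 0.479 and 0.737 for the Tshr MKO BMDMs, so that Traf1 exceeded Traf2 per length in the first group and not in the second (exact permutation p = 0.1, 0.16 adjusted). Of the plain counts Tshr MKO replicate 3 lay above 1 too, at 1.27. In livers the ratio per length was 0.0175 to 0.172.

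**Figure D4:**
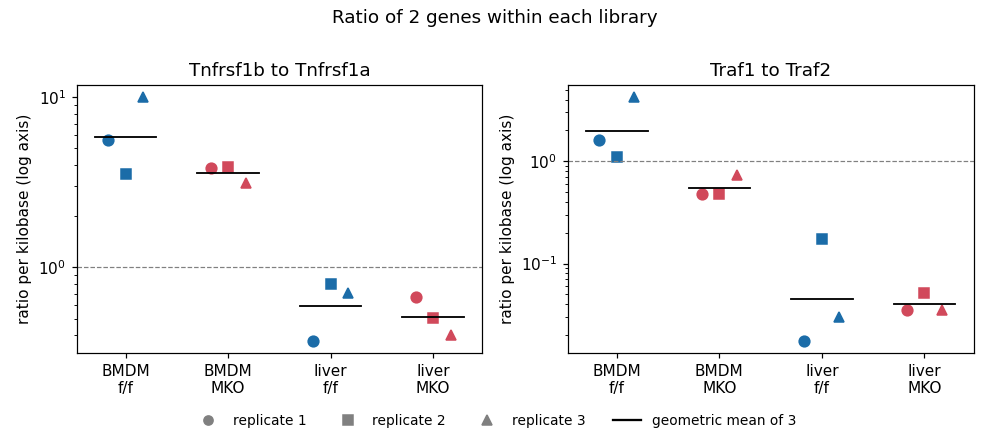
Ratio per kilobase of Tnfrsf1b to Tnfrsf1a (left) and of Traf1 to Traf2 (right) in each library, on log axes, with the geometric mean of 3 as a bar and a dashed line at 1. On this scale the receptor ratio was above 1 in all BMDM libraries and below 1 in all livers, and the adaptor ratio was above 1 in the Tshr f/f BMDMs alone.

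Set against livers in 1 fit of all 12 libraries, BMDMs held more of most of these RNAs, where diet, treatment and culture differ along with the tissue. In Tshr f/f, 10 of the 10 genes were higher in BMDMs at an adjusted p under 0.05 by edgeR, against 32.7% of the 17246 genes tested, and 9 did not overlap, against 33.7%. The median log2 difference was 3.88, beside -0.03 over all genes. In Tshr MKO, 7 of the 10 were higher, against 31.8% of all genes, and 7 did not overlap, against 37.7%. The median there was 2.77, beside -0.07 over all genes, and Lta, Tnfrsf1a and Traf2 did not pass. Each comparison sets its own libraries against each other, but both take their spread from the same fit, so they are not independent. Tnf and Lta, below the count minimum within livers, entered this fit through their BMDM counts. Where they were higher in BMDMs, that was thus set in part by the filter, and the counts and medians here include them.

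By role, the receptors Tnfrsf1b and Tnfrsf11a were higher in BMDMs in both genotypes, by 4.17 ± 0.46 and 3.20 ± 0.46 (log2, SE) in Tshr f/f and by 3.19 ± 0.44 and 5.38 ± 0.52 in Tshr MKO. Tnfrsf1a, the receptor of most cells, differed by 0.60 ± 0.23 in Tshr f/f (edgeR adjusted p = 0.0403, and 0.122 without BMDM replicate 3) and by 0.39 ± 0.23 in Tshr MKO (edgeR adjusted p = 0.165). Traf1 was higher by 6.18 ± 0.96 and 3.74 ± 0.89, Tnfaip3 by 5.09 ± 0.91 and 3.23 ± 0.84, Birc3 by 3.59 ± 0.48 and 2.35 ± 0.46, and Ripk1 by 1.02 ± 0.17 and 1.21 ± 0.17, in Tshr f/f and Tshr MKO. Traf2 was higher in Tshr f/f BMDMs by 1.02 ± 0.21 (edgeR adjusted p = 0.00118), while in Tshr MKO its log2 difference was 0.01 ± 0.20 (edgeR adjusted p = 0.974). Tnf was higher by 12.18 ± 1.78 in Tshr f/f and by 7.07 ± 1.51 in Tshr MKO. Without Tshr f/f BMDM replicate 3 the differences in Tshr f/f came to 9.95 for Tnf, 5.06 for Traf1, 3.77 for Tnfaip3 and 3.42 for Tnfrsf1b. Without replicate 2 of the livers, which had the most Tnf counts, they came to 13.7 for Tnf and 7.77 for Traf1 in Tshr f/f and to 8.08 for Tnf in Tshr MKO, and without liver Tshr f/f replicate 1 to 5.95 for Tnfaip3. With the liver labels exchanged, an alternative chosen after the data were seen, 10 and 7 of the 10 genes were higher in BMDMs as before. For Lta the summed counts, 588 in BMDMs and 2 in livers of Tshr f/f, gave a depth-scaled ratio of 139 (exact 95% interval 38.4 to 1154), and in Tshr MKO, 24 and 3 counts, a ratio of 3.91 (1.19 to 20.3). These intervals cover counting error only.

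Whether the genotype difference itself differed between BMDMs and livers was tested as an interaction in the same fit, with the livers as labelled. By edgeR 0 of the 10 genes passed an adjusted p of 0.05, beside 1 of all genes (0.0058%), and at an unadjusted p under 0.05 there were 2 lower, Tnf and Traf2, against 7.42% of all genes, and 1 higher, Tnfrsf11a, against 7.12%. For Traf2 the BMDM difference was lower than the liver difference by a log2 value of -1.01 ± 0.29 (SE, adjusted p = 0.204 by edgeR), and for Tnfrsf11a it was higher by 2.18 ± 0.64 (edgeR adjusted p = 0.205). Both genes passed with DESeq2 (adjusted p = 0.046 and 0.0238), which called 343 genes lower (1.99%) and 431 higher (2.5%) of all. Without Tshr f/f BMDM replicate 3 the values were -0.76 for Traf2 and 1.84 for Tnfrsf11a. The value for Tnf was -5.11 ± 2.00 (SE, adjusted p = 0.292 by edgeR), and -2.87 without Tshr f/f BMDM replicate 3. The liver side of the Tnf value rests on 0 to 23 counts per library. With the liver labels exchanged, edgeR gave 0.24 for Tnfrsf11a (adjusted p = 0.939), -0.74 for Traf2 (adjusted p = 0.307) and -5.18 for Tnf, so that the value of Tnfrsf11a rests on the liver labels.

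The rest of the pathway was counted in 4 lists, to be read against all genes in BMDMs, of which 10.2% were lower and 7.73% higher at an unadjusted p under 0.05, and 7.4% and 7.85% without Tshr f/f replicate 3. Of 31 genes of the receptor complex and its kinases, all tested in BMDMs, 9 were lower and 1 higher in Tshr MKO at an unadjusted p under 0.05, and the median log2 fold change was -0.32. Leaving out Tshr f/f replicate 3 gave 7 lower and 2 higher, with a median of -0.12. By edgeR 0 of these or of any other list passed an adjusted p of 0.05. The 3 most abundant were Cflar, Tax1bp1 and Adam17. Cflar, which encodes the caspase-8 inhibitor c-FLIP, was at 598, 215 and 1434 CPM across Tshr f/f BMDMs against 148, 143 and 181 CPM across Tshr MKO BMDMs. Tax1bp1, an adaptor of A20, was at 328, 237 and 682 CPM and at 222, 228 and 240 CPM. Adam17, the protease that sheds TNF from the membrane, was at 632, 336 and 599 CPM and at 457, 479 and 437 CPM, with overlapping groups.

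Of 15 other ligands of the superfamily 12 were tested, and 2 were lower and 2 higher at an unadjusted p under 0.05, with a median of -0.58. Without Tshr f/f replicate 3 these were 2 and 2 of 13, with a median of -0.9. Tnfsf15 was at 23.9, 1.65 and 384 CPM across Tshr f/f against 1.83, 1.76 and 3.11 CPM across Tshr MKO, so that 2 of the 3 Tshr f/f libraries lay above the Tshr MKO group. Tnfsf9, the ligand of 4-1BB, was at 30.7, 10.2 and 94.3 CPM and at 3.47, 3.23 and 10.3 CPM, while Tnfsf12, which encodes TWEAK, was at 40.0, 32.7 and 15.7 CPM and at 61.9, 55.2 and 54.3 CPM. Tnfsf12 shared with Tnfrsf11a the lowest value in Tshr f/f replicate 3. Of 25 other receptors 23 were tested, 5 were lower and 2 higher at an unadjusted p under 0.05, and the median was 0.01, as over all genes. Without Tshr f/f replicate 3 there were 4 lower and 2 higher, with a median of -0.12. Ltbr, the lymphotoxin beta receptor, was at 70.4 to 91.4 CPM across Tshr f/f against 75.9 to 83.9 CPM across Tshr MKO. Cd40, the receptor for T cell help, was at 171, 23.7 and 457 CPM and at 21.2, 25.0 and 25.2 CPM, and Tnfrsf14 at 119, 82.3 and 91.9 CPM and 48.8, 49.7 and 90.7 CPM.

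Genes known to be induced by TNF through NF-kappa B had the lowest median of the 4 lists. Of 30 genes 29 were tested in BMDMs, 28 had a log2 fold change below 0, against 49.2% of all genes, and 24 were lower and 0 higher at an unadjusted p under 0.05. The median was -1.98, and without Tshr f/f replicate 3 it was -1.14, with 18 lower and 0 higher. Ptgs2, the inducible cyclooxygenase, was at 448, 161 and 8840 CPM across Tshr f/f against 8.17, 7.01 and 38.8 CPM across Tshr MKO. Il1b, the cytokine interleukin-1 beta, was at 216, 453 and 5941 CPM and at 5.33, 3.49 and 86.6 CPM. Cxcl2, a chemokine that attracts neutrophils, was at 631, 280 and 5434 CPM and at 47.8, 37.3 and 166 CPM. For all 3 genes the lowest Tshr f/f library lay above the highest Tshr MKO library.

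**Figure D5:**
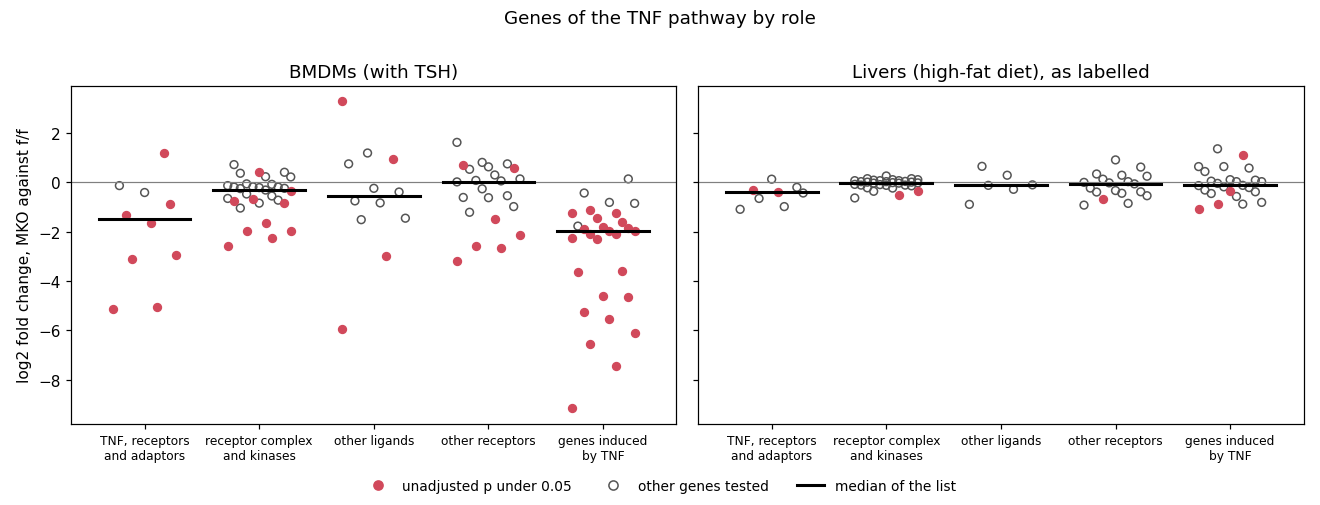
Log2 fold change, Tshr MKO against Tshr f/f, of the 10 genes and of the 4 lists in BMDMs (left) and livers (right). Filled points had an unadjusted p under 0.05, open points did not, and bars are medians; in BMDMs the medians were -1.51, -0.32, -0.58, 0.01 and -1.98 from left to right, and in livers -0.41, -0.02, -0.12, -0.07 and -0.13.

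In livers 30 genes of the receptor complex, 6 ligands, 19 receptors and 25 TNF-induced genes were tested. At an unadjusted p under 0.05 there were 2 lower and 0 higher in the receptor complex, 0 and 0 among ligands, 1 and 0 among receptors, and 3 and 1 among TNF-induced genes, with medians of -0.02, -0.12, -0.07 and -0.13. Over all genes in livers 5.18% were lower and 5.27% higher.

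By the mean absolute difference of log2 CPM profiles over the 12 libraries, each centred on its mean, the 5 genes most like Tnf were Cxcl2 (0.812), Ccl3 (0.875), Ccl4 (0.923), Slc7a11 (0.974) and Slamf7 (0.975). The points share 2 tissues of very different level, which dominate the measure. The genes were chosen over these same libraries, so a likeness to Tnf within BMDMs is set in part by the choice. Ccl3 and Ccl4 encode the chemokines MIP-1 alpha and MIP-1 beta. Ccl3 was at 327, 85.5 and 3833 CPM across Tshr f/f BMDMs against 48.9, 38.0 and 108 CPM across Tshr MKO BMDMs, so that, unlike Tnf, its groups overlapped. Ccl4 (144, 16.9 and 1465 CPM and 24.7, 20.4 and 41.9 CPM) overlapped too. So did Slamf7 (738, 303 and 2595 CPM and 329, 355 and 343 CPM). Slc7a11, the cystine transporter, was at 209, 360 and 2291 CPM and at 24.0, 19.2 and 44.6 CPM.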

How the data were processed

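RNA was sequenced from 12 libraries, 3 per group (33683981 to 40954211 counts per BMDM library and 28962878 to 40420513 per liver library). The authors trimmed reads with Skewer and checked them with FastQC 0.11.2. The submitters' processing notes name STAR, StringTie and mm10, and the counting program is not given in the sources used here. The deposited table holds raw counts per gene, not normalized, and columns were matched to samples by name. The authors' own test (MARS in DEGseq) takes no spread between replicates and was not used.

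Counts were tested with edgeR 4.0.16 (TMM, filterByExpr, robust quasi-likelihood) in R 4.3.3, within BMDMs, within livers, and over 12 libraries for the tissue comparisons and the interaction. P-values were adjusted by Benjamini-Hochberg over all genes tested. An SE is the size of the log2 fold change divided by the root of F. CPM values use TMM factors within a tissue, and levels per kilobase use factors over 12 libraries and merged exon lengths of GENCODE M21 (55154 of 55335 gene IDs matched). DESeq2 1.42.0, RLE factors, no filter, a replicate block, libraries left out 1 at a time, and other sample sets were alternatives, and exchanged liver labels were added after the data were seen. The steps were tested on simulated data. Ratios used exact permutation tests.

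All 10 genes are named, with the 3 most abundant of each list and the 5 nearest profiles to Tnf. Members and lists were chosen with earlier results of these data known. No deposited columns were left out. The study gives 3 mice per group, but the labels name no animal for a library, so p-values measure only the spread between these samples.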

Additional observations from a re-analysis of the deposited data

How the results depend on the processing

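No gene of the 10 passed an adjusted p of 0.05 between genotypes in either tissue by edgeR under any normalization, filter or set of samples tried, and DESeq2 gave 6 in BMDMs. In BMDMs the count higher at an unadjusted p under 0.05 was 0 to 1 with 1 library left out (0 without Tshr MKO replicate 1 or 2), against 3.55% to 10.8% of all genes. In livers the 2 lower genes became 1 with the replicate block, 0 with all 12 libraries in 1 fit, and 1 to 3 with 1 library left out (3 without Tshr f/f replicate 1, 1 without Tshr f/f replicate 2, Tshr MKO replicate 2 or Tshr MKO replicate 3). Of all genes in livers 4.15% were lower with the block, 3.25% in the fit of all 12 and 3.45% to 7.57% with 1 library left out. For the interaction DESeq2 gave 2 genes, and leaving out 1 library 0 to 1 (1, Traf2, without Tshr f/f BMDM replicate 2). Without that library 1.49% of all genes passed as lower and 0.435% as higher. With 1 library left out the log2 fold change of Ripk1 in BMDMs ran from -0.26 to 0.06 (above 0 without Tshr f/f replicate 3). In livers that of Tnfrsf1a ran from -0.37 to 0.08 (above 0 without Tshr f/f replicate 1), of Traf1 from -1.11 to 0.90 (above 0 without Tshr f/f replicate 2) and of Traf2 from -0.04 to 0.21 (below 0 without Tshr MKO replicate 2). In Tshr f/f, the 10 genes higher in BMDMs than in livers by edgeR became 9, without Tnfrsf1a, in some settings. It was 9 without Tshr f/f BMDM replicate 3 or Tshr MKO BMDM replicate 1, and with only the 6 Tshr f/f libraries. It was also 9 without liver Tshr f/f replicate 2 or 3, or liver Tshr MKO replicate 2. Of all genes 29.4% to 32% were higher in these settings. The log2 difference of Traf2 between Tshr MKO BMDMs and livers ran from -0.09 to 0.17, and was -0.03 without liver Tshr MKO replicate 1 and -0.09 without replicate 3. With the liver labels exchanged, an alternative chosen after the data were seen, the interaction value of Ripk1 went from 0.19 to -0.45, and 0 of the 10 genes passed. The causes were not tested.

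Same-numbered replicates deviated together with correlations of 0.096, 0.013 and 0.102 in BMDMs and -0.056, 0.217 and -0.021 in livers, so the numbers were not taken to pair samples. The replicate block changed no adjusted call among the 10 genes between genotypes. Over all genes in BMDMs, DESeq2 called 701 lower and 522 higher where edgeR called 0, and edgeR with all 12 libraries called 85 and 65. Depth limits Tnf and Lta in livers.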
